A study of Mus musculus with 12 samples.

Results

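The 39 genes described here encode the MiT/TFE transcription factors TFEB, TFE3 and MITF, proteins that build autophagosomes, and proteins of the lysosome. They were taken by symbol from a gene table of 24062 entries, in which all 39 were found, and all 39 passed the filter on low values that left 11440 genes for testing. Messenger RNA came from primary bone marrow derived macrophages of wild-type C57Bl/6 mice at passage 1, in 4 groups of 3 libraries. One group was left unstimulated. The others received, for 2 h, the compound C-178, the compound CMA, or both at once. STING is a membrane protein that sets off type I interferon production when DNA is sensed in the cytosol. C-178 binds it covalently and inhibits it, and CMA activates the mouse protein. The labels give no doses, and the unstimulated cells are not described as having received a vehicle, so an effect of a solvent cannot be told apart from that of a compound. Whether the libraries of a group came from separate mice or cultures is not stated, so p-values measure the spread between these libraries, which may be technical.

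Lysosomes break down material that arrives by endocytosis, phagocytosis and autophagy, and macrophages are especially rich in them. TFEB and its relatives TFE3 and MITF bind E-box sequences in the promoters of lysosomal and autophagy genes, the set known as the CLEAR network. In fed cells the kinase complex mTORC1, recruited to the lysosome by Rag GTPases, phosphorylates these factors and holds them in the cytoplasm, and starvation or lysosomal damage lets them enter the nucleus. That control acts on protein location, which mRNA counts do not measure. Activated STING is itself known to leave the Golgi for lysosomes, where it is degraded, and to trigger lipidation of LC3 proteins.

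The promoters show how many of the genes carry the sequence these factors read. RefSeq promoter windows (GRCm38.p6, 250 bases before to 50 after the start) were at hand for 33 of the 39 genes, in 40 windows. The core CACGTG was present in windows of 11 of the 33 genes, against 8.09% of all 27025 genes and 7.15% of all 32851 windows. The longer palindrome TCACGTGA, which contains the core, was present in windows of 6 genes (Atp6v0d1, Atp6v1a, Ctsa, Ctsd, Gla and Mcoln1), against 1.12% of genes and 0.974% of windows. A variant, TCATGTG, searched like the others on both strands, was found for 4 genes (Ctsa, Ctss, Gla and Scarb2), against 4.31% of genes and 3.77% of windows. The 8 matches to TCACGTGA are printed below with 11 bases on each side, 5′ to 3′ on the gene's strand with the motif in capitals, because they are the stretches in which these genes resemble each other. The run of CACGTG matches before the start of Lamp1 is shown as well, since 4 of them lie within 72 bases.
Ctsa, chr2:164833749-164833778, plus strand: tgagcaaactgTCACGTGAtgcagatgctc
Ctsa, chr2:164833766-164833795, plus strand: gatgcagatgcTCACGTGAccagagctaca
Ctsd, chr7:142387908-142387937, minus strand: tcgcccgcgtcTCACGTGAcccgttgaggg
Mcoln1, chr8:3500462-3500491, plus strand: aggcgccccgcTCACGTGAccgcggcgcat
Atp6v0d1, chr8:105566050-105566079, minus strand: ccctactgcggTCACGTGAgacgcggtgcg
Atp6v1a, chr16:44139373-44139402, minus strand: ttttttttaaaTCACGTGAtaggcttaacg
Gla, chrX:134601215-134601244, minus strand: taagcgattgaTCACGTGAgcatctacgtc
Gla, chrX:134601182-134601211, minus strand: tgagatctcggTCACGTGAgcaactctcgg
Lamp1, chr8:13159089-13159160, plus strand: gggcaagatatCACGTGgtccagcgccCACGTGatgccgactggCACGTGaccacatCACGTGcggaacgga
A match is a description of the letters in these windows and says nothing of binding.

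The 12 libraries held 7.049 to 36.438 M recovered reads, and the 3 CMA libraries (7.126 to 7.826 M) were shallower than the unstimulated ones (13.907 to 17.449 M). The 12 macrophage marker symbols listed name 11 genes, since Adgre1 and Emr1 are the same gene. All 11 were in the table and exceeded 100 normalised counts in every group mean. Their summed level was 383000 to 400400 in unstimulated libraries and 383800 to 454100 with CMA. In the labels, the extraction protocol mentions embryonic fibroblasts, and the 9 fibroblast markers summed to 697.2 to 740.5 in unstimulated libraries, 907.9 to 1019 with C-178, 873.5 to 1559 with CMA and 476.7 to 1012 with both, with 1 marker at 0 in each group but C-178. Their part in the results was not tested. The interferon beta gene Ifnb1, which STING switches on, read 0 in each unstimulated library, 1424, 2211 and 1630 with CMA, and 54.04, 39.98 and 84.04 with both compounds. Replicates of the 39 genes differed least with CMA (median SD 5.01% of the mean) and most with both compounds (14.9%).

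Levels of the 39 genes spanned a wide range in unstimulated cells. Per kilobase of the longest coding transcript, the mean normalised count ran from 41.9 for Gabarapl2, which encodes a ubiquitin-like protein of autophagosome membranes, to 52820 for Ctsd, which encodes the aspartic protease cathepsin D. Psap, which encodes the precursor of the saposins that help degrade sphingolipids, stood at 48860, Ctss (the cysteine protease cathepsin S) at 34600 and Ctsb (cathepsin B) at 23120 per kilobase. Lamp1, which encodes a heavily glycosylated protein of the lysosomal membrane, followed at 11720. The 3 transcription factor genes were far lower on this scale, with Tfe3 at 892.9, Tfeb at 184.0 and Mitf at 183.2. The order from Ctsd to Psap rests on means whose library ranges overlap after division by length, so these neighbours do not differ beyond their spread.

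**Figure D1:**
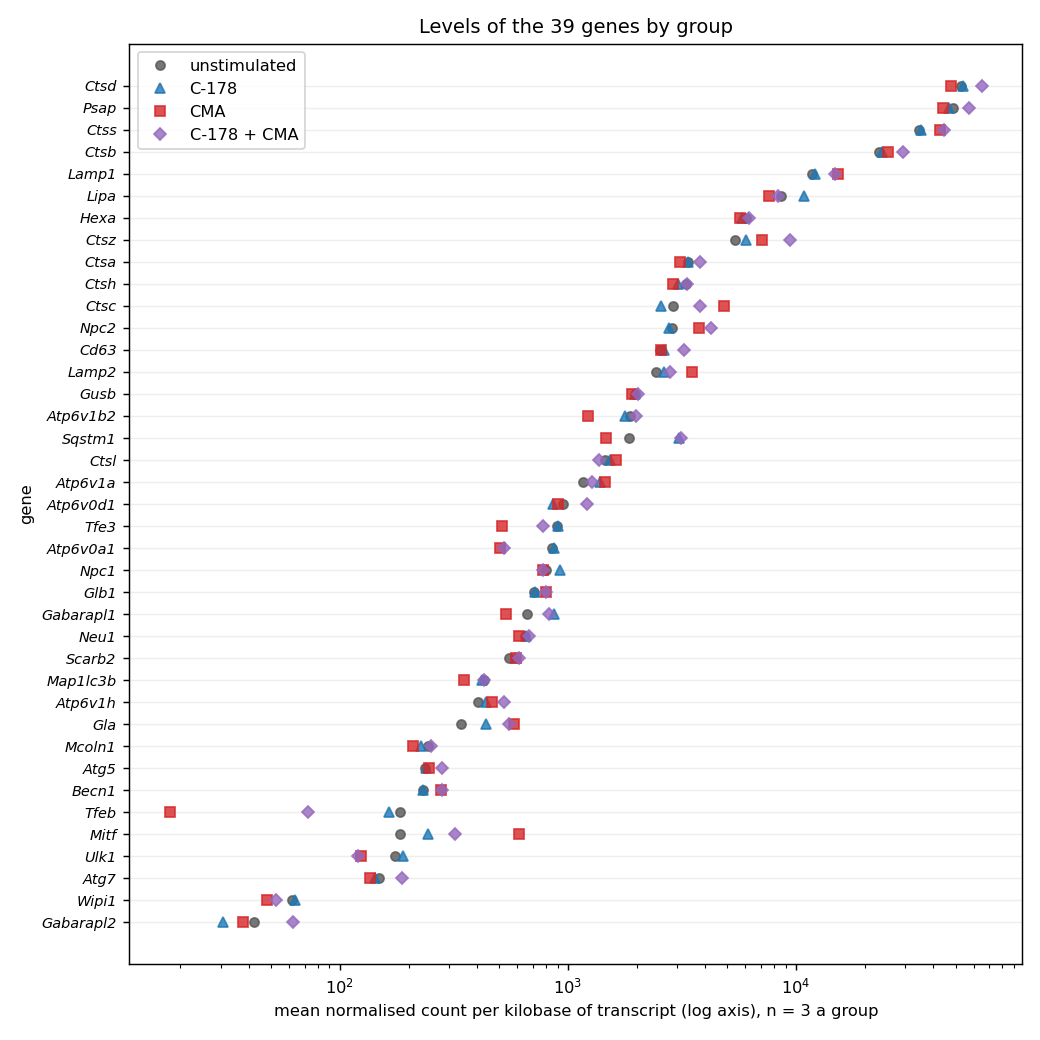
Mean normalised count per kilobase of the longest coding transcript (log axis) for each of the 39 genes, with a symbol for each group (n = 3 libraries). Ctsd, Psap, Ctss and Ctsb are at the top, Tfeb lies apart from its other groups with CMA, and most other genes have symbols that lie close together.

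All reads on the 39 genes together made up 5.53% ± 0.0835 (SD, n = 3) of the library in unstimulated cells, 5.66% ± 0.0972 with C-178, 4.36% ± 0.106 with CMA and 5.72% ± 0.638 with both. The share was lower in each CMA library (4.28% to 4.48%) than in each unstimulated one (5.44% to 5.61%), a difference given here without a test. Most of the sum came from Psap, Ctsd and Ctsb. Their mean shares were 1.248%, 1.079% and 1.053% in unstimulated libraries and 0.866%, 0.755% and 0.884% with CMA. The summed share therefore says little of the other genes. The deposited normalisation did not hold library totals equal, since summed normalised counts were 10.229 to 10.573 M in unstimulated libraries and 12.899 to 14.064 M with CMA. Every change below is therefore relative to the deposited normalisation, under which the median log2 change of all tested genes was -0.01 for CMA against no stimulation. When libraries were scaled to their total reads instead, that median was -0.38, quantile normalisation gave -0.12 and removal of transcript length and GC trends -0.11.

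The first question is how these genes differed between cells given CMA and cells left unstimulated. Tfeb (-3.36) and Mitf (1.73) moved most, in opposite directions. Tfe3 (-0.79) fell about as far as Atp6v0a1 (-0.77), in size close to the rises of Gla (0.78) and Ctsc (0.74). The bulk of the hydrolase and cathepsin genes was not called. By limma at adjusted p under 0.05, 6 of the 39 rose, against 19.4% of all tested genes, and 6 fell, against 17.9% (12 in either direction, against 37.3%). The shares, 15.4% each, were near this background, and the median log2 change was -0.08. The groups did not overlap for 26 of the 39, against 61.8% of all tested genes. Scaled to total reads, the split was 3 up and 20 down, against 12.4% and 41.5% of all tested genes. With quantile normalisation it was 2 up and 21 down, against 17.1% and 23.3%, so that the balance of rises and falls depends on the scaling. As these are bulk samples, a smaller share of cells expressing a gene and less of its RNA per cell cannot be told apart.

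Tfeb (chr17:47737030-47792419, plus strand, mm10) read 418.9, 458.0 and 415.7 normalised counts in unstimulated cells and 56.04, 35.53 and 34.87 with CMA. All 3 CMA libraries lay far below all unstimulated ones. The mean was 10.2-fold lower, with a log2 change of -3.36 ± 0.28 (SE, limma adjusted p = 4.16e-07), and the call was kept in all 25 alternatives. Tfe3 (chrX:7762560-7775202, plus strand) read 3243, 3053 and 2785 without stimulation and 1796, 1727 and 1702 with CMA. The groups were again apart, with a mean 1.74-fold lower (-0.79 ± 0.12, limma adjusted p = 8.75e-05). Mitf (chr6:97807052-98021349, plus strand), best known for its roles in melanocytes and osteoclasts, moved the other way. It read 864.4, 862.3 and 956.0 without stimulation and 3014, 2903 and 2974 with CMA, a 3.31-fold rise (1.73 ± 0.18, limma adjusted p = 4.29e-06).

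**Figure D2:**
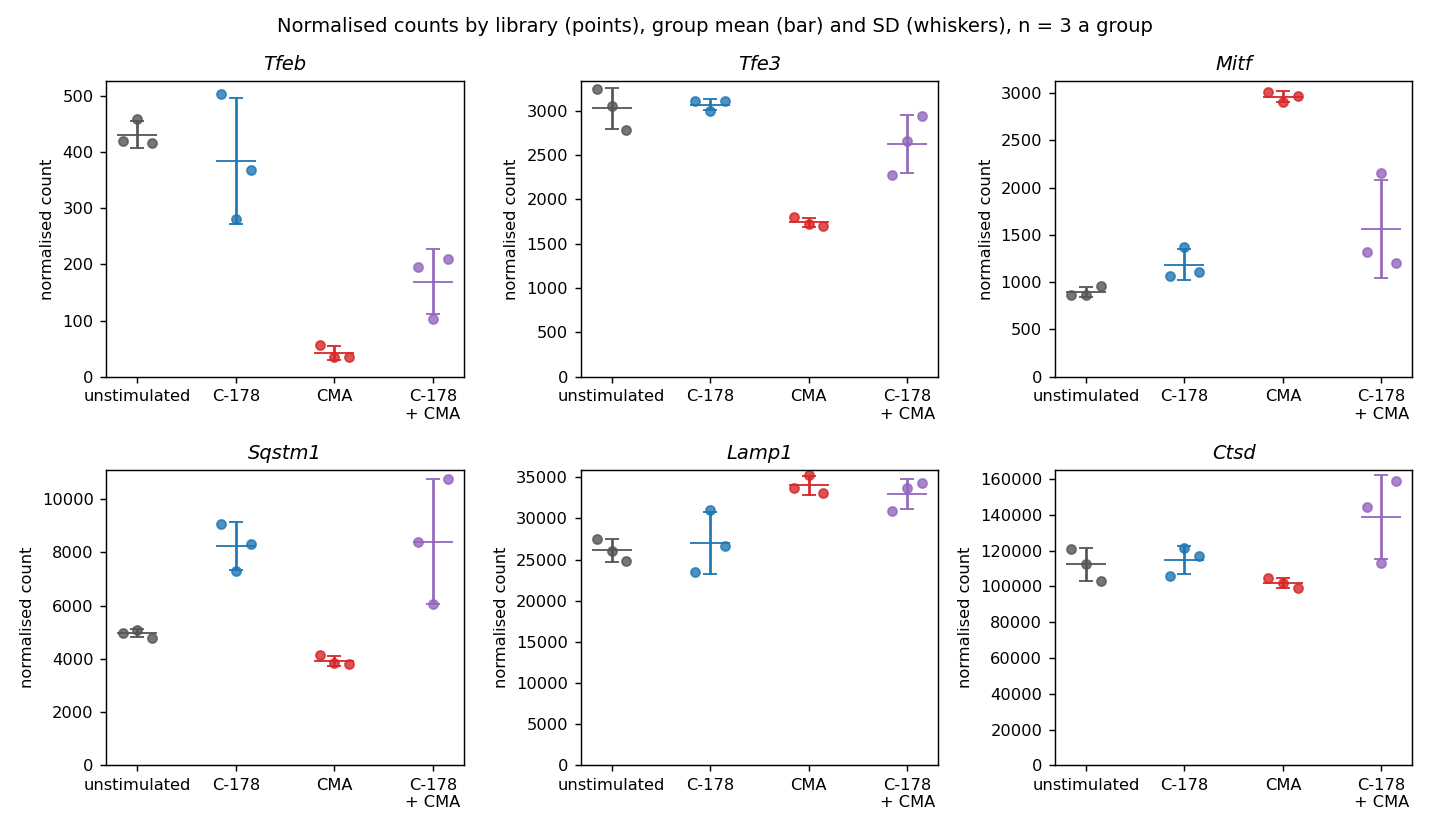
Normalised count of Tfeb, Tfe3, Mitf, Sqstm1, Lamp1 and Ctsd in each library (points) by group, with the group mean (bar) and SD (whiskers), n = 3, on linear axes from 0. Tfeb is lowest and Mitf highest in the 3 CMA libraries, and Sqstm1 is above the unstimulated range in each library that received C-178.

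Because the factors bind the same sequences, their relative amounts of mRNA were compared per kilobase. In unstimulated cells Tfe3 made up 70.8% ± 2.06 (SD, n = 3) of the summed level of the 3 genes, Tfeb 14.6% ± 0.889 and Mitf 14.6% ± 1.57. With CMA the shares were 45.1% ± 0.478 for Tfe3, 1.57% ± 0.407 for Tfeb and 53.3% ± 0.707 for Mitf. Mitf thus became the most abundant of the 3 in each CMA library and was not so in any unstimulated one. The sum itself was 1260 ± 60 per kilobase in unstimulated cells and 1139 ± 28.2 with CMA.

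**Figure D3:**
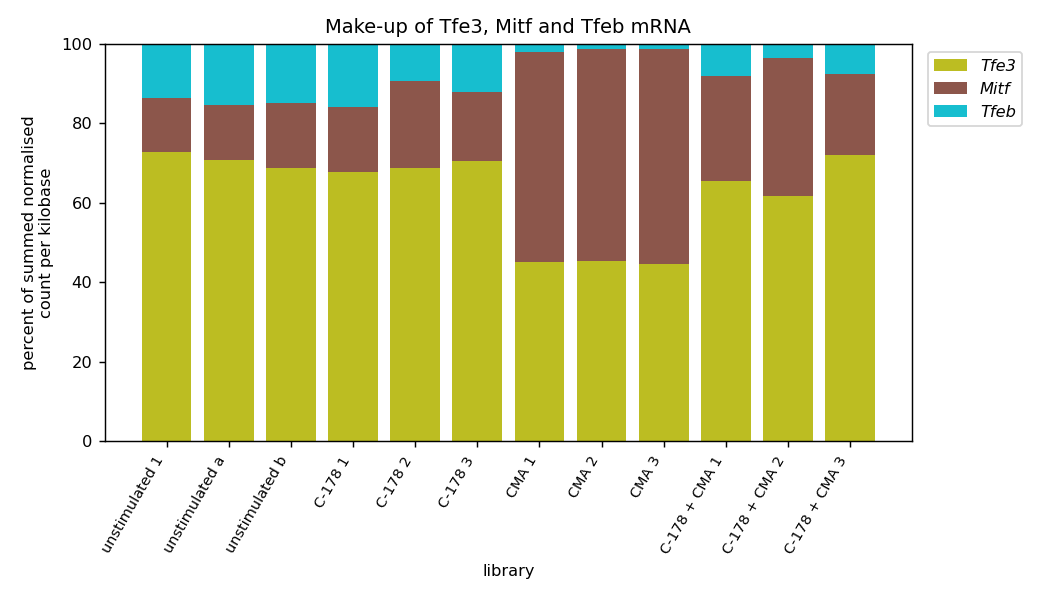
Share of Tfe3, Mitf and Tfeb in the summed normalised count per kilobase of the 3 genes, as a stacked bar for each library. Mitf holds 52.7% to 54.1% in CMA libraries against 13.5% to 16.4% in unstimulated ones.

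Among the 9 autophagy genes, 2 fell with CMA and the rest were not called. Ulk1, which encodes the kinase that starts autophagosome formation, read 990.6, 866.4 and 862.3 without stimulation and 613.1, 647.4 and 684.6 with CMA. The groups did not overlap, and the log2 change was -0.48 ± 0.11 (limma adjusted p = 0.00419). Wipi1, whose product binds phosphoinositide on the forming autophagosome, read 206.0, 203.6 and 210.1 and then 163.2, 148.0 and 170.7. This fall (-0.36 ± 0.14, limma adjusted p = 0.0487) was called in only 12 of 25 alternatives. Sqstm1 (chr11:50199366-50210827, minus strand), which encodes the cargo receptor p62, read 4963, 5098 and 4802 and then 4153, 3839 and 3803. These libraries did not overlap, but the change of -0.33 ± 0.17 was not called (limma adjusted p = 0.145). Scaled to total reads it was -0.71 and called. Becn1, which encodes a subunit of the lipid kinase complex of autophagy (0.27 ± 0.11, limma adjusted p = 0.0579), and Map1lc3b, which encodes LC3B (-0.29 ± 0.12, adjusted p = 0.0786), came close to the threshold. Values for the ubiquitin-like Gabarapl1 (-0.30) and Gabarapl2 (-0.22) and the conjugation enzymes Atg5 (0.07) and Atg7 (-0.14) were further from it.

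Of the 6 genes of the lysosomal membrane, Lamp1 and Lamp2 rose with CMA under the deposited normalisation. Lamp1 (chr8:13159161-13175338, plus strand) read 27540, 26010 and 24810 without stimulation and 33700, 35300 and 33080 with CMA. No library of either group overlapped the other, and the change of 0.38 ± 0.13 (limma adjusted p = 0.037) turned to -0.37 with quantile normalisation and to 0.01 scaled to total reads. Lamp2, whose product also serves chaperone-mediated autophagy, read 8817, 8528 and 9010 and then 11860, 13670 and 12220. Its rise of 0.52 ± 0.14 (limma adjusted p = 0.00983) turned to -0.13 with quantile normalisation and to 0.14 scaled to total reads. The other 4 were not called: the calcium channel gene Mcoln1 (-0.21), the cholesterol exporter gene Npc1 (-0.05), the tetraspanin gene Cd63 (0.02) and Scarb2 (0.11), whose product carries glucocerebrosidase to lysosomes.

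Of the 8 cathepsin genes 1 was called. Ctsc, which encodes a dipeptidyl peptidase that activates serine proteases of immune cell granules, read 8781, 9152 and 10040 without stimulation and 14390, 16510 and 15840 with CMA. Each CMA library exceeded each unstimulated one, 1.67-fold on average (0.74 ± 0.12, limma adjusted p = 0.000305), though the value was 0.04 with quantile normalisation. Ctsd (chr7:142375911-142388038, minus strand) read 121200, 112700 and 103100 and then 104600, 102100 and 98900. These ranges overlap, and the change of -0.14 (95% interval -0.49 to 0.21, limma adjusted p = 0.55) was not called, whereas scaling to total reads gave a called value of -0.51. The others ran from -0.19 for Ctsh, an aminopeptidase gene, to 0.39 for the carboxypeptidase gene Ctsz, whose groups did not overlap but whose adjusted p was 0.163.

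Among the 8 genes of glycosidases, lipase and lipid-binding proteins, Gla and Npc2 rose. Gla (chrX:134588149-134601125, minus strand) encodes α-galactosidase A, and its promoter window holds 2 of the palindromes printed above. It read 1014, 1036 and 1170 without stimulation and 1666, 2045 and 1817 with CMA. The groups were apart, the mean was 1.72-fold higher (0.78 ± 0.14, limma adjusted p = 0.000559), and the call was kept in all 25 alternatives. Npc2, which encodes the soluble partner of NPC1 in cholesterol export, read 9578, 9396 and 9385 and then 12240, 12770 and 11960. The libraries did not overlap, but the rise of 0.38 ± 0.14 (limma adjusted p = 0.04) was called in only 12 of 25 alternatives and turned to -0.27 with quantile normalisation. The β-hexosaminidase gene Hexa (-0.09), the sialidase gene Neu1 (-0.10), the β-galactosidase gene Glb1 (0.16), the β-glucuronidase gene Gusb (-0.05), the acid lipase gene Lipa (-0.17) and Psap (-0.15) were not called.

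The vacuolar ATPase pumps protons into the lysosome, and 2 of its 5 listed subunit genes fell. Atp6v0a1 (chr11:101009452-101063719, plus strand), which encodes an isoform of the large membrane subunit, read 3448, 3511 and 3300 without stimulation and 1732, 2305 and 1997 with CMA. No overlap remained, and the mean was 1.70-fold lower (-0.77 ± 0.12, limma adjusted p = 0.000187), a call kept in all 25 alternatives. Atp6v1b2, which encodes a subunit of the ATP-hydrolysing part, read 5083, 5296 and 5536 and then 3132, 3521 and 3688. Here too the groups were apart (-0.62 ± 0.20, limma adjusted p = 0.0221), but the call was lost in 4 of 25 alternatives. These left out unstimulated library a or b, or CMA library 1 or 2. Atp6v1a (0.31), Atp6v1h (0.21) and Atp6v0d1 (-0.08) were not called.

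**Figure D4:**
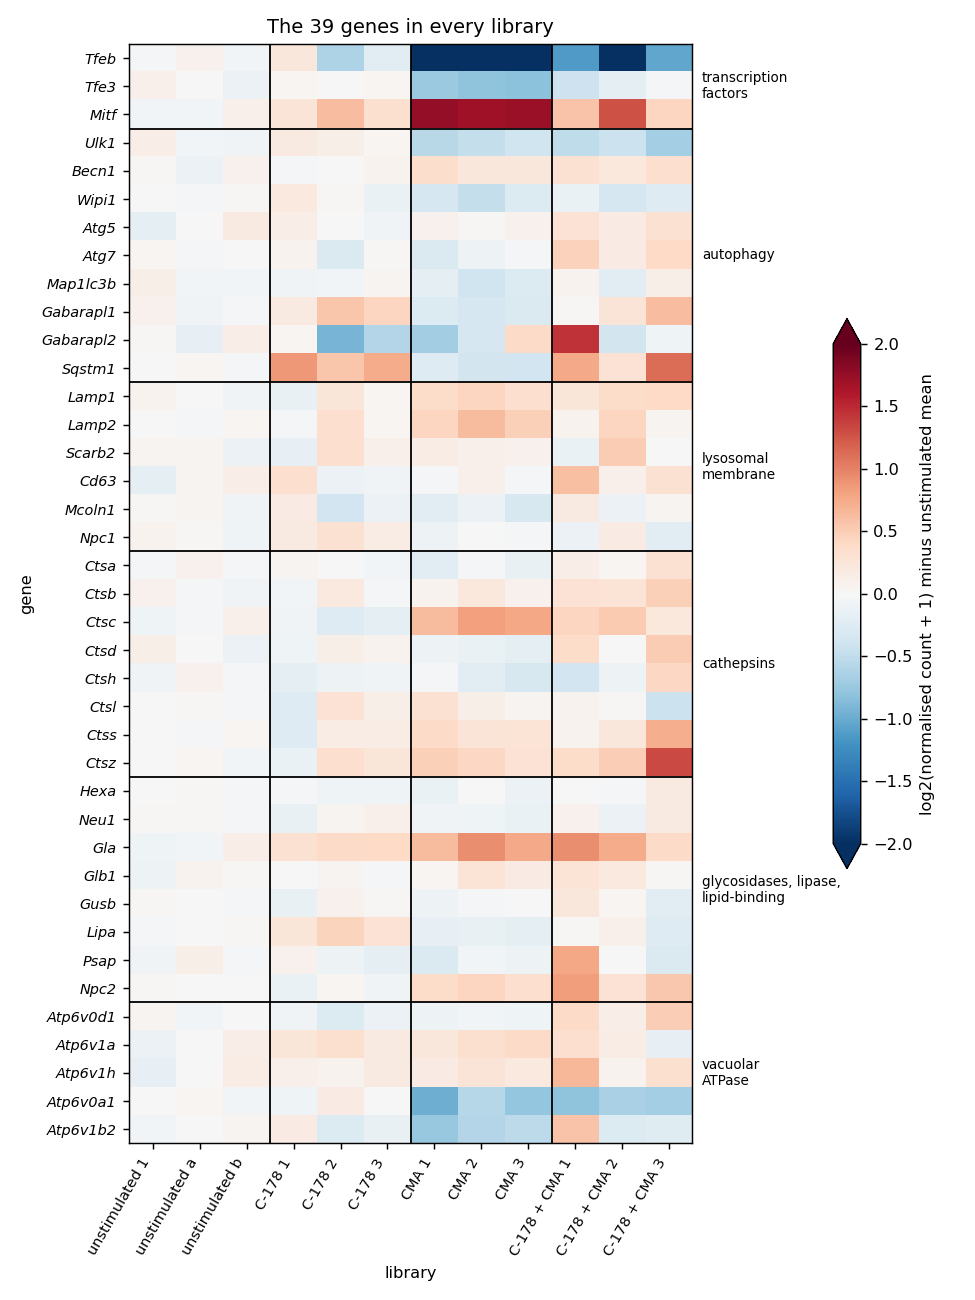
Colour shows log2(normalised count + 1) of each of the 39 genes in each library minus the mean of the unstimulated group, with genes ordered by role and the scale ending at -2 and 2. Tfeb is blue and Mitf red in all 3 CMA libraries, while most genes below them stay pale, and the libraries with both compounds differ from each other more than those of other groups.

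How the 6 members with TCACGTGA in their windows moved can be set beside the others, as a description. With CMA, Gla rose and the other 5 were not called, with a median log2 change of -0.11 over the 6 and -0.09 over the 27 genes with a window but no such match. Of the 11 genes with the core CACGTG, Gla and Lamp1 rose and the rest were not called (median 0.07), and Lamp1 turned with quantile normalisation as given above. With both compounds against CMA alone, 1 of the 6 rose (Atp6v0d1), and their median was 0.27 against 0.13 for the 27.

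Further genes of the pathway were read from 5 lists, whose counts have the same background of 19.4% up and 17.9% down. Of 30 tested genes that act on TFEB at the lysosome, 10 rose and 4 fell (median 0.11). Genes named from these lists were picked with their values in view, for small adjusted p or large changes. Gsk3b, which encodes a kinase that phosphorylates TFEB, rose from 1427 to 4028 (1.50 ± 0.15), and Tfec, the remaining MiT/TFE gene, from 339.7 to 721.6 (1.08 ± 0.19). Flcn, which encodes folliculin, the activator of the Rag GTPases that present TFEB to mTORC1, fell from 1112 to 525.9 (-1.08 ± 0.18), and the mTORC1 component gene Akt1s1 from 530.9 to 206.4 (-1.38 ± 0.25). Of 36 other autophagy genes 5 rose and 9 fell (median -0.17). The cargo receptor gene Optn went from 158.1 to 499.3 (1.65 ± 0.17) and Vps18, which encodes a tether of vesicles to lysosomes, from 1024 to 396.3 (-1.37 ± 0.15). Of 34 other hydrolase genes 3 rose and 4 fell (median -0.01), with the phospholipase gene Pla2g15 (-0.84) among the falls. Of 26 other membrane and transport genes 5 rose and 4 fell (median -0.02), with the calcium channel genes Tpcn1 (-0.83) and Tpcn2 (-0.79) among the falls. Of 12 other vacuolar ATPase genes 3 rose and 1 fell (median 0.01), led by Atp6ap2 (1.00).

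Whether the inhibitor by itself altered these genes in resting cells was read from C-178 and unstimulated libraries. Limma called none of the 39 in either direction, against 0.0962% of all tested genes up and 0.0% down. At an unadjusted p under 0.05, 5 were higher and 0 lower, against 2.08% and 1.59% of all tested genes. EdgeR called none, and DESeq2 called 1, Sqstm1, against 0.297% of all tested genes up. The median log2 change was 0.02, and the groups did not overlap for 8 of the 39, against 15.6% of all tested genes. Sqstm1 stood out, with 9067, 7284 and 8330 normalised counts after C-178 against 4802 to 5098 without. Every C-178 library exceeded the unstimulated ones by a wide margin, 1.66-fold on average. The log2 change of 0.73 ± 0.17 (95% interval 0.36 to 1.09) did not pass once adjusted over all genes (limma adjusted p = 0.30). It was called in 5 of 25 alternatives. Hmox1, the heme oxygenase gene, given here only as a reference, read 9567 to 10030 without stimulation and 35380, 29690 and 31410 with C-178.

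The other values with C-178 ran from -0.49 for Gabarapl2 (95% interval -1.38 to 0.40) to 0.40 for Mitf, and none was called. Mitf read 1071, 1375 and 1110 (0.40 ± 0.18, limma adjusted p = 1.0), above all unstimulated libraries. Tfeb read 502.7, 281.6 and 367.6, which overlaps the unstimulated range, and its 95% interval ran from -0.80 to 0.39. Tfe3 read 3106, 2993 and 3111, an overlap too, with an interval from -0.23 to 0.27. Library 2 was thus the lowest of its group for Tfeb and Sqstm1 and the highest for Mitf. Lamp1 read 23440, 30960 and 26690 (interval -0.25 to 0.33) and Ctsd 106000, 121400 and 117300 (interval -0.32 to 0.39), both overlapping the unstimulated libraries. Gabarapl1 (1366, 1769 and 1627, 0.39 ± 0.15), Gla (0.37 ± 0.14) and Lipa (0.33 ± 0.13) were higher without overlap, each with limma adjusted p = 1.0. None of the 138 genes of the 5 other lists was called by limma, edgeR or DESeq2, and 2 were higher and 0 lower at an unadjusted p under 0.05, where 2.08% and 1.59% of all tested genes lay.

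The libraries with both compounds, set against those with CMA alone, show these genes under the agonist with and without the inhibitor. Tfeb and Tfe3 were higher and Mitf lower when C-178 was present, and Sqstm1 more than doubled. The mean of Sqstm1 was, however, similar with C-178 alone (8227) and with both compounds (8397). By limma 7 of the 39 rose, against 10.6% of all tested genes, and 1 fell, against 13.5%, with a median log2 change of 0.15 beside 0.00 for all tested genes. The groups did not overlap for 14 of the 39, against 35.5% of all tested genes. The CMA libraries also enter the comparison of CMA with no stimulation, so the values of each stand side by side and no relation between them is drawn. Without library 2 of both compounds 11 rose and 3 fell, against 19% and 22.1% of all tested genes. Without CMA library 1 or 2 only 4 rose, against 8.59% and 5.22%, and with only these groups in the fit 2 rose, against 2.28%.

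Tfeb read 195.0, 102.8 and 209.3 with both compounds, against 34.87 to 56.04 with CMA alone. All 3 were above the CMA range and below every unstimulated library. The mean was 4.01-fold that of CMA alone (1.95 ± 0.28, limma adjusted p = 0.000459). Tfe3 read 2278, 2664 and 2937 against 1702 to 1796, without overlap (0.59 ± 0.12, limma adjusted p = 0.00363). Mitf read 1322, 2153 and 1203 against 2903 to 3014. Library 2 was the closest to CMA alone for Tfeb and Mitf. The mean of Mitf was 1.90-fold lower (-0.98 ± 0.18, limma adjusted p = 0.00267). Per kilobase, the shares with both compounds were 66.5% ± 5.18 for Tfe3, 27.2% ± 7.14 for Mitf and 6.33% ± 2.52 for Tfeb.

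Of the 9 autophagy genes 3 rose. Sqstm1 read 8391, 6051 and 10750 with both compounds against 3803 to 4153 with CMA alone. The libraries were spread but all above CMA, with a mean 2.14-fold higher (1.06 ± 0.17, limma adjusted p = 0.00113). Gabarapl1 read 1227, 1446 and 1840 against 957.2 to 992.2. No overlap was seen (0.60 ± 0.15, limma adjusted p = 0.0111). Atg7, which encodes the enzyme that activates the ubiquitin-like proteins of autophagy, read 789.1, 644.0 and 759.4 with both and 469.7, 538.8 and 569.0 with CMA. This was a rise of 0.47 ± 0.13 (limma adjusted p = 0.0227), against 558.9 to 593.7 without stimulation. The call of Atg7 was lost in 6 of 27 alternatives. With C-178 alone the means were 8227 for Sqstm1, 1587 for Gabarapl1 and 554.8 for Atg7. With both compounds they were 8397, 1504 and 730.8. Gabarapl2 was the least certain of the 39, with 192.3, 54.26 and 65.70 with both compounds (0.55 ± 0.41, not called).

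In the vacuolar ATPase, Atp6v1b2 read 7893, 4402 and 4465 with both compounds against 3132 to 3688 with CMA. Library 1 was far above the other two, and all 3 were above CMA (0.64 ± 0.20, limma adjusted p = 0.0309). The call was lost without library 1 of both compounds, where the value was 0.37, and without any 1 CMA library. Atp6v0d1 rose by 0.41, a call also lost without any 1 CMA library. Atp6v0a1 read 1962, 2178 and 2142, within the range of CMA alone (0.07, 95% interval -0.20 to 0.33). Of the 22 genes of the lysosomal membrane, cathepsins, glycosidases, lipase and lipid-binding proteins, none was called by limma. At an unadjusted p under 0.05, 2 of them were higher (Ctsa and Ctsd) and 2 lower (Ctsc and Lamp2), against 18.7% and 20.8% of all tested genes. By edgeR 1 cathepsin gene rose, and by DESeq2 2 rose and 1 fell, with no call in the other 14. Ctsd read 144300, 113100 and 158800 (0.43 ± 0.16, limma adjusted p = 0.0695), above all CMA libraries. Lamp1 read 30840, 33650 and 34250, overlapping CMA alone (-0.05, interval -0.34 to 0.24).

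For the other lists, the background with both compounds against CMA was 10.6% of all tested genes up and 13.5% down. Of 30 TFEB regulators 4 rose and 3 fell (median 0.05), and of 36 autophagy genes 4 rose and 3 fell (0.10). Of 34 hydrolase genes 5 rose and 1 fell (0.11). Of 26 membrane and transport genes 3 rose (0.08), and of 12 vacuolar ATPase genes 3 rose and 1 fell (0.28). Gsk3b was lower, at 1782 against 4028 (-1.20 ± 0.15), and Optn, at 275.8 against 499.3 (-0.86 ± 0.17). Tfec, at 740.8 against 721.6, was not called (limma adjusted p = 0.992). The channel gene Mcoln2 (0.94 ± 0.18) and the pump subunit gene Tcirg1 (0.71 ± 0.17) rose.

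**Figure D5:**
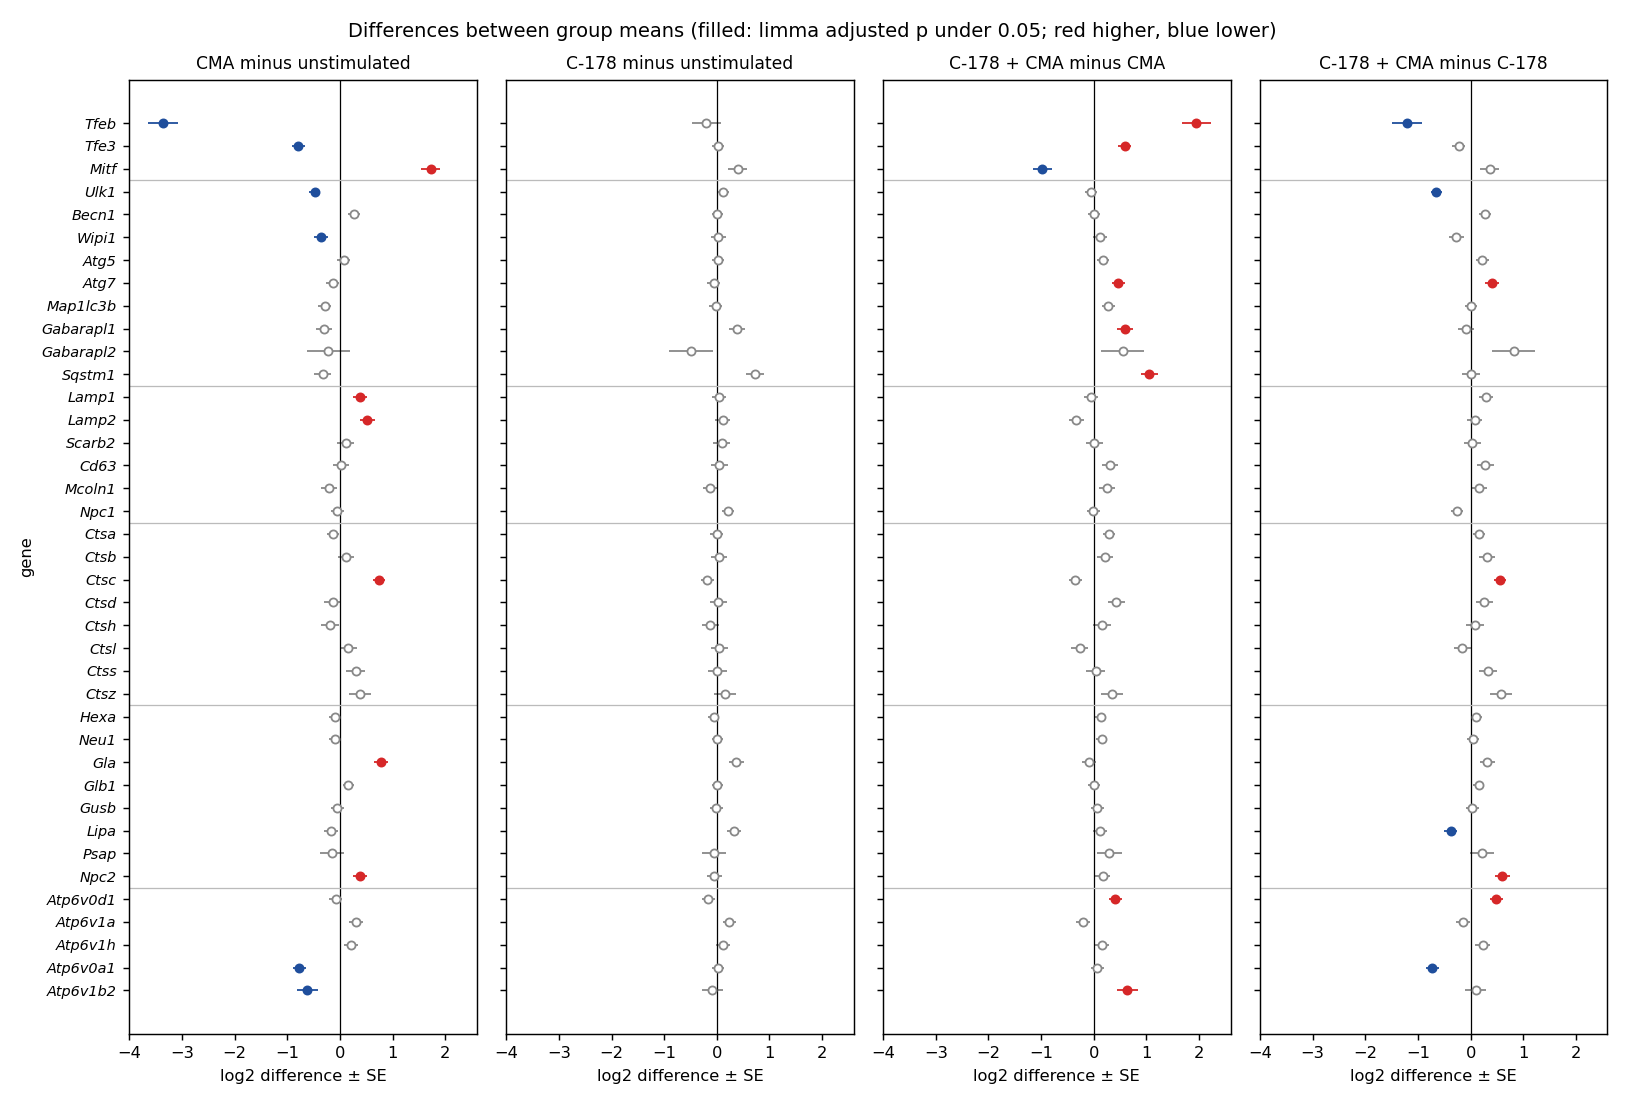
Log2 difference between group means with its SE for each of the 39 genes in 4 comparisons, with filled points for limma adjusted p under 0.05. Tfeb and Mitf lie on opposite sides of 0 in the panels for CMA against no stimulation and for both compounds against CMA, and the panel for C-178 against no stimulation has no filled point. Lamp1, Lamp2 and Npc2, filled in the panel for CMA against no stimulation, change sign with quantile normalisation.

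C-178 plus CMA against C-178 asks what CMA still did when the inhibitor was present. By limma 4 of the 39 rose, against 13.5% of all tested genes, and 4 fell, against 12.6% (median 0.15). The groups did not overlap for 13 of the 39, against 34.0% of all tested genes. Tfeb (-1.21 ± 0.28, limma adjusted p = 0.00594) was lower with both compounds than in each C-178 library, and Ulk1 read 637.2, 671.1 and 566.9 against 934.3 to 1026 (-0.65 ± 0.11, limma adjusted p = 0.000869). Atp6v0a1 fell as well, from 3215, 3811 and 3409 with C-178 (-0.73 ± 0.12, limma adjusted p = 0.000645). These 3 calls were kept in all 27 alternatives. Lipa, the acid lipase gene, read 30160, 34840 and 31240 with C-178 and 25810, 27340 and 21290 with both (-0.38 ± 0.13, limma adjusted p = 0.0469). This call was kept in only 11 of 27 alternatives.

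Ctsc read 8878, 7772 and 8096 with C-178 and 12540, 13380 and 10750 with both compounds, without overlap (0.56 ± 0.12, limma adjusted p = 0.00465). Npc2 read 8664, 9717 and 9035 and then 16880, 11520 and 13730 (0.60 ± 0.14, limma adjusted p = 0.00519). Atp6v0d1, which encodes a subunit of the membrane part of the pump, read 1473, 1286 and 1431 and then 2030, 1698 and 2176 (0.49 ± 0.12, limma adjusted p = 0.00697). In each of these, all libraries with both compounds exceeded all with C-178 alone. Atg7, at 604.6, 471.3 and 588.5 with C-178, was higher with both (0.40 ± 0.13, limma adjusted p = 0.0419), a call kept in only 12 of 27 alternatives. With the library number as a block, which was taken to pair these groups, Atg7 and Lipa were no longer called (limma adjusted p = 0.0764 and 0.103). Scaled to total reads, 1 gene rose and 8 fell, against 8.04% and 26.4% of all tested genes. Quantile normalisation also gave 1 and 8, against 11.8% and 16.5%, and with only these groups in the fit 0 rose, against 6.45%. Sqstm1 (-0.00, interval -0.37 to 0.36), Tfe3 (-0.23), Mitf (0.36), Lamp1 (0.29) and Ctsd (0.26) were not called, with limma adjusted p from 0.123 to 0.99.

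C-178 plus CMA against no stimulation shows how far these genes stood from resting cells with both compounds. By limma 6 of the 39 rose, against 11.1% of all tested genes, and 3 fell, against 10.5% (median 0.16). The groups did not overlap for 17 of the 39, against 34.5% of all tested genes. Tfeb was 2.55-fold lower (-1.41 ± 0.28, limma adjusted p = 0.00212), Atp6v0a1 changed by -0.71 ± 0.12 and Ulk1 by -0.54 ± 0.11, all below each unstimulated library. Mitf (0.75 ± 0.18, limma adjusted p = 0.00859) and Sqstm1 (0.72 ± 0.17, adjusted p = 0.0077) rose. Gla read 2033, 1801 and 1398 (0.69 ± 0.14) and Npc2 rose by 0.55 ± 0.14, both above the unstimulated range. Ctsc rose by 0.39 ± 0.12 (limma adjusted p = 0.0401), a call kept in only 12 of 25 alternatives, lost without any 1 unstimulated library and at 0.00 with quantile normalisation. Ctsz read 10050, 11030 and 19450 against 7510 to 8062 (0.73 ± 0.21, limma adjusted p = 0.0228), with library 3 far above the others. Without that library the value was 0.43, and the call was lost without any 1 unstimulated library. Tfe3 (-0.21), Lamp1 (0.33) and Ctsd (0.29) were not called. Scaled to total reads the split was 2 up and 5 down, against 7.4% and 22.5% of all tested genes. With quantile normalisation it was 2 and 7, against 10.2% and 14.1%, and with only these groups 1 rose, against 7.07%.

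The interaction asks whether the effect of CMA differed with and without C-178, as the change from C-178 to both compounds minus the change from no stimulation to CMA. By limma 3 of the 39 were positive, against 3.95% of all tested genes, and 1 negative, against 5.99% (4 in either direction, against 9.94%). For Tfeb the effect of CMA was -3.36 without and -1.21 with C-178, a difference of 2.15 ± 0.39 (limma adjusted p = 0.00626). For Mitf it was 1.73 without and 0.36 with C-178, a difference of -1.37 ± 0.26 (limma adjusted p = 0.00751). Both calls were kept in all 24 alternatives. For Tfe3, -0.79 against -0.23, the difference was 0.56 ± 0.16 (limma adjusted p = 0.0455), and for Atp6v0d1, -0.08 against 0.49, it was 0.57 ± 0.16 (limma adjusted p = 0.044). Each of these was called in 12 of 24 alternatives, and without any single library other than C-178 library 1 or library 1 or 2 of both compounds only 1 positive call was left. Ulk1 (-0.17 ± 0.16), Atp6v0a1 (0.04 ± 0.17), Ctsc (-0.18 ± 0.18) and Gla (-0.46 ± 0.20) were not called, with limma adjusted p from 0.137 to 0.88, which does not show that the effect of CMA on them was the same.

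The sources used here do not name the counting tool or its strand setting, and exons of 12 of the 39 genes overlap those of another protein-coding gene in GENCODE M21. The longest overlap is that of Becn1 with Cntd1 on the opposite strand, 3104 bases. For Sqstm1 the overlap with Mrnip on the opposite strand spans 580 bases and for Lamp1 that with Grtp1 249 bases. For Ctsd that with Gm49369 on the same strand spans 808 bases. Part of the reads of these genes could belong to the neighbour. No exon of Tfeb, Tfe3, Mitf, Ulk1, Gla, Ctsc, Atp6v0a1 or Atp6v1b2 overlaps another annotated gene.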

How the data were processed

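Polyadenylated RNA was sequenced from 12 macrophage libraries with a stranded TruSeq kit, per the labels' protocols. The signal analysed is a gene count divided by a size factor, in the table deposited by the authors. The submitters' processing notes name mm10, Bowtie2 2.2.1 and limma 3.18.13 without their roles, and the sources used here name neither counter nor annotation. Reads were recovered by dividing each column by its smallest step, after which 100.0% of values were whole within 0.01. Another 12 columns, of Cook's distances, stayed unused. A heading is shared by 2 unstimulated columns, hence the names 1, a and b.

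Log2(value + 1) was fitted by limma 3.58.1 (R 4.3.3, lmFit, eBayes with trend) over all 12 libraries for the 11440 genes above 10 normalised counts in at least 3 libraries, with Benjamini-Hochberg adjustment over all of them. Changes are on this scale, which understates the fold of low genes. On recovered reads edgeR 4.0.16 called 2235 genes up and 2047 down for CMA against no stimulation, and limma called 2224 and 2047. DESeq2 1.42.0, other pseudocounts, filters and scalings, weights, thinning to 7049454 reads, and leaving out each library were alternatives. Figures used Python 3.11.15 and matplotlib 3.10.9.

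The 39 genes and the lists were chosen with earlier results of these data known. Named with all libraries were Tfeb, Tfe3, Mitf, Sqstm1, Lamp1 and Ctsd, and per comparison up to 6 called rises and 6 called falls of largest size. Residuals of same-numbered libraries in the C-178 group and the group with both compounds had correlations of 0.45, 0.43 and 0.26. The numbers were therefore taken to pair these groups. For C-178 and CMA the values were -0.04, 0.06 and -0.08, and for CMA and C-178 plus CMA -0.14, 0.18 and -0.16. Values within a pair of groups are not independent, since residuals are taken from each group's own mean. Library 1 was also the deepest with C-178 (28.476 M reads) and with both compounds (36.438 M). The other libraries of these groups held 7.049 to 8.813 M. The part of depth in the correlations was not tested. Positions and lengths are from GENCODE M21 and promoters from RefSeq.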

Additional observations from a re-analysis of the deposited data

Results flagged for a closer look

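For 4 of the 39 genes the effect of CMA differed depending on whether C-178 was present, by the limma interaction term on log2 values. Each effect came from 3 against 3 libraries. Of all tested genes 9.94% were called, a share near that of the 39. Tfeb had an interaction of 2.15 ± 0.39 (SE, limma adjusted p = 0.00626). Its fall with CMA left 34.87 to 56.04 normalised counts without the inhibitor and 102.8 to 209.3 with it. Mitf had an interaction of -1.37 ± 0.26 (limma adjusted p = 0.00751). Tfe3, at 0.56 ± 0.16 (limma adjusted p = 0.0455), and Atp6v0d1, at 0.57 ± 0.16 (limma adjusted p = 0.044), were near the threshold. Neither of these calls was kept in every alternative.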

How the results depend on the processing

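Over 25, 25, 27, 27, 25 and 24 alternatives, in the order of the comparisons in the report, 6 of 12, 0 of 0, 3 of 8, 3 of 8, 4 of 9 and 2 of 4 calls were kept in every alternative. A gene called neither in the reported fit nor in an alternative was counted as the same whatever its sign. The scaling to total reads and the fit of only the 9 treated libraries were chosen after seeing the data. Tfeb and Gabarapl2 had the fewest reads, with 18 and 24 in their lowest libraries. The causes of the changes below were not tested.

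Percentages in brackets are shares of all tested genes. For CMA against no stimulation (6 up, 6 down), quantile normalisation gave 2 and 21 (17.1% and 23.3%) and total reads 3 and 20 (12.4% and 41.5%). Array weights gave 11 and 13 (32.1% and 32.4%), and only the groups compared 10 up (27.9%). Quantile normalisation turned Lamp1 (-0.37), Lamp2 (-0.13), Npc2 (-0.27), Ctsl (-0.49) and Ctss (-0.52), and removal of length and GC trends turned Atg5 (-0.30). For C-178 against no stimulation (0 up), DESeq2 gave 1, array weights 6 and only the groups compared 1, where 0.297%, 7.19% and 0.236% of all tested genes were up. For both compounds against CMA (7 up, 1 down), quantile normalisation gave 12 up (12.3%), only the groups compared 2 up (2.28%) and only the 9 treated libraries 4 up (5.86%). A filter above 50 and DESeq2 gave 2 down each (14.9% and 14.4%). DESeq2 called 9 up there (12.4%), and edgeR called 8 up and 1 down (11.8% and 12.3%). For both against C-178 (4 up, 4 down), quantile normalisation gave 1 and 8 (11.8% and 16.5%) and total reads 1 and 8 (8.04% and 26.4%). DESeq2 gave 7 up (16.1%) and only the groups compared 0 up (6.45%). For both against no stimulation (6 up, 3 down), quantile normalisation gave 2 and 7 (10.2% and 14.1%) and turned Hexa (-0.35). Total reads gave 2 and 5 (7.4% and 22.5%), DESeq2 10 up (14.2%) and only the groups compared 1 up (7.07%). For the interaction (3 up), no filter and removal of length and GC trends gave 1 up each (1.77% and 2.95%).

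With 1 library left out at a time, rises numbered 4 to 9, 0 to 1, 4 to 11, 3 to 8, 4 to 10 and 1 to 6, and falls 4 to 9, 0 to 0, 1 to 3, 3 to 5, 3 to 3 and 1 to 2, in the same order. Without library 2 of both compounds, rises were 11 against CMA, 8 against C-178, 10 against no stimulation and 6 for the interaction. Of all tested genes, 19%, 18.5%, 14.6% and 14.7% rose in these fits. The rise of Sqstm1 with C-178 was called without library 2 or library 3 of both compounds. With the library number as a replicate block over the 9 treated libraries, Atg7 (0.40) and Lipa (-0.38) lost their calls for both compounds against C-178, and the block changed no other call there or against CMA. Atg7 and Lipa also lost these calls in other alternatives. No paired analysis was possible for comparisons with the unstimulated group because only 1 of its 3 columns carries a number of its own.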
